A study of Homo sapiens with 6 samples.

Results

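Genes that mark or maintain leukaemia stem and progenitor cells were followed in MOLM-14, a line of human acute myeloid leukaemia cells grown in culture that carries the MLL-AF9 fusion. The 10 genes were CD34, PROM1, SOX4, MSI2, BMI1, MECOM, SPINK2, LAPTM4B, CD200 and NPR3, and every probe set that the platform annotation gives to 1 of them and to no other gene was taken. That gave 33 of the 54613 probe sets tested, for 9 of the 10 genes. The single BMI1 probe set is also assigned to the read-through transcript COMMD3-BMI1, so BMI1 itself has no value here. The study compared 3 samples kept for 24 h in 10 nM cortistatin A (CA), a marine sponge steroid alkaloid that blocks CDK8 and its paralog CDK19 (both Mediator-associated kinases), with 3 samples kept for 24 h in the vehicle DMSO. Each sample was hybridised to 1 Affymetrix array, and values are log2 intensities per probe set. All 6 samples are wells of the same cell line, plated in triplicate per the labels, so the p-values measure the spread between these wells, which may be technical.

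Acute myeloid leukaemia is maintained by cells that keep features of normal haematopoietic stem and progenitor cells, above all the capacity to self-renew. No single marker defines these cells. CD34 and PROM1 (CD133) are surface glycoproteins used to enrich them, SOX4, BMI1, MECOM and MSI2 are regulators of transcription, chromatin and translation that sustain immature states, and SPINK2, LAPTM4B, CD200 and NPR3 are genes whose high expression has been linked to immature or poor-risk leukaemia. MLL fusion proteins such as MLL-AF9 drive a self-renewal program in cells that can otherwise look monocytic.

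The probe sets were first sorted by whether they were expressed in the DMSO arrays, taken here as a log2 value of at least 6 in each of the 3 arrays. The level is a convention, since no detection calls were used, and an array value does not give the amount of one transcript relative to another. By it 16 of the 33 probe sets were expressed (48.5%, against 42.7% of all probe sets). These were all 4 of LAPTM4B, 6 of 10 of MSI2, 4 of 6 of SOX4, 1 of 3 of NPR3 and the only probe set of CD34. PROM1, MECOM, SPINK2 and CD200 had no expressed probe set. Among 37 genes specific to tissues such as liver, pancreas and retina, which blood cells are not expected to express, 6 also reached the level, and the 95th percentile of their DMSO means was 6.84. CD34, at a DMSO mean of 6.34, lay below that percentile. Fewer cells with a transcript and less of it per cell cannot be told apart in such bulk samples.

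SOX4 and, by less, NPR3 were higher in CA, and none of the 33 probe sets was called lower. A probe set was called at an adjusted p under 0.05, from limma with Benjamini-Hochberg adjustment over all probe sets. By this rule 7 member probe sets were higher in CA, 5 of SOX4 and 2 of NPR3, where 3.0% of all probe sets were called higher and 5.01% in either direction. Of these 7, 5 were among the 16 probe sets expressed in DMSO, where 9.89% of all such probe sets were called. The count of lower member probe sets was 0, where 2.01% of all probe sets were called lower. At an unadjusted limma p under 0.05, 9 member probe sets were higher and 4 were lower, those lower all of LAPTM4B. The share of all probe sets under that unadjusted p was not counted, so these counts have no baseline. The median change over the 33 probe sets was 0.01 on the log2 scale, against -0.01 over all probe sets. The 2 groups were fully separated in 15 member probe sets (45.5%, where 25.1% of all probe sets were so separated). Probe sets of 1 gene share their transcripts and are not independent measurements.

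**Figure D1:**
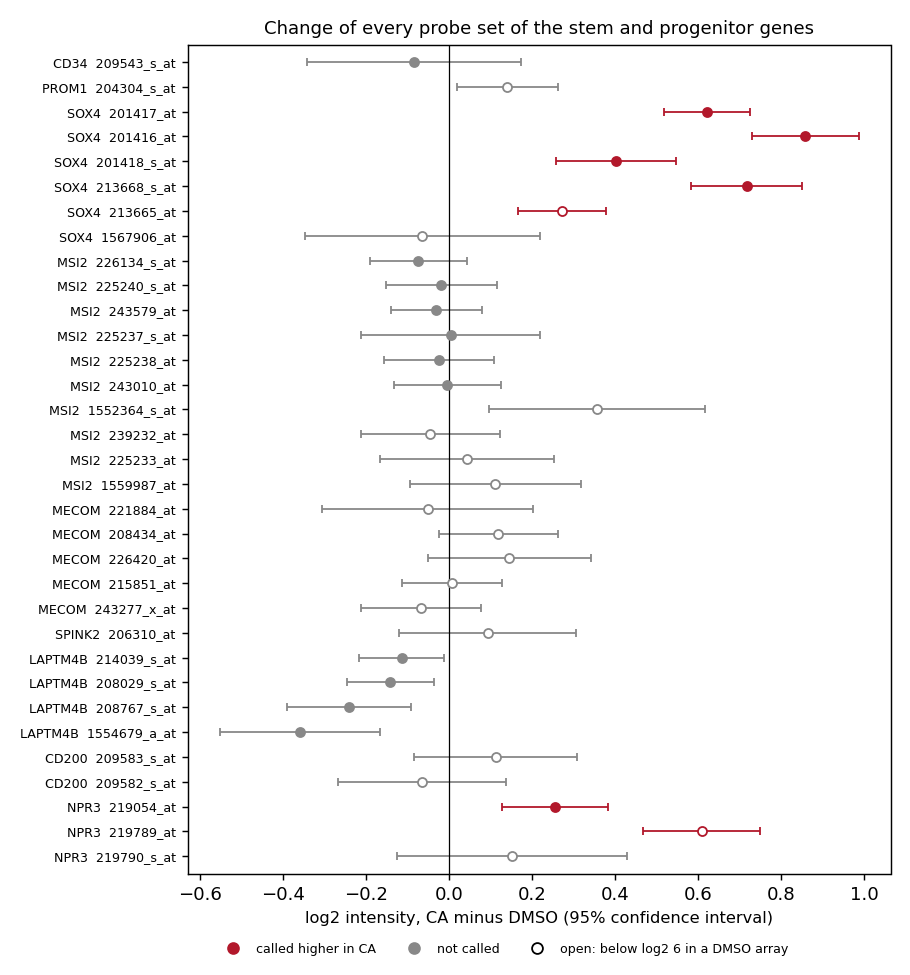
Change of each of the 33 probe sets of the stem and progenitor genes, as the difference in log2 intensity of CA minus DMSO with its 95% confidence interval from limma (3 arrays a group). Red marks the 7 probe sets called higher, grey those not called, and open symbols probe sets below log2 6 in at least 1 DMSO array. The called probe sets of SOX4 and NPR3 stand to the right of 0, and the 4 LAPTM4B intervals lie wholly below 0.

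Promoters of SOX4 and NPR3 are shown because these are the genes with called probe sets. Each window runs from 250 bases before to 50 bases after an annotated start, from RefSeq on GRCh38.p14, and 18 windows of 9 member genes were read. The chromosome of LAPTM4B was left out of the reading, so LAPTM4B has no window here. Capitals mark matches on either strand to CCAAT (the CCAAT box), GGGCGG (the GC box), TATAAA (the TATA motif) or TTCNNNGAA (a STAT motif), and matches to different strings do not overlap in the windows shown. The SOX4 window lies at chr6:21593501-21593800 on the plus strand, and NPR3 has a window at each of 2 annotated starts, chr5:32690622-32690921 and chr5:32710399-32710698, both on the plus strand.
SOX4: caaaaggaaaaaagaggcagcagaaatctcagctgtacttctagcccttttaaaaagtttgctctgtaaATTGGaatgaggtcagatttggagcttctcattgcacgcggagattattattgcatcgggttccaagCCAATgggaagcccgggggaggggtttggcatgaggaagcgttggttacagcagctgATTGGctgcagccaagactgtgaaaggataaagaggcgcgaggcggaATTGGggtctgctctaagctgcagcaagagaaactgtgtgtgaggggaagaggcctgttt
NPR3, upstream start: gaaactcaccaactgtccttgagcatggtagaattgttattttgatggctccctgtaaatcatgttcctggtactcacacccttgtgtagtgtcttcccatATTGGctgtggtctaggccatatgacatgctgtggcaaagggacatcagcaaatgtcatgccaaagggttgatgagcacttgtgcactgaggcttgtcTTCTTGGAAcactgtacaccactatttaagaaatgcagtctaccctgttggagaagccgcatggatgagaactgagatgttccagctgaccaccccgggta
NPR3, downstream start: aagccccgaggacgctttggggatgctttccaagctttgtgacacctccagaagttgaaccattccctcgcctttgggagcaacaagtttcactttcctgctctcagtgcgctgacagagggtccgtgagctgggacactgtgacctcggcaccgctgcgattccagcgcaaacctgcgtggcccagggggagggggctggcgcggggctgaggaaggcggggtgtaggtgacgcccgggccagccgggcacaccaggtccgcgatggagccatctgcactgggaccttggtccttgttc
The SOX4 window holds 4 matches to the CCAAT box and none to the other strings. Of 35116 promoter windows of the same length, 34.6% hold at least 1 CCAAT match and 0.991% hold 4 or more, a count made after the SOX4 window had been read. The upstream NPR3 window holds 1 CCAAT match and 1 match to the STAT motif, which 7.66% of all windows hold, and the downstream window holds no match. A GC box is present in 45% of all windows and the TATA motif in 11.5%. A match is a string of letters in this window and not evidence that a factor binds there.

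SOX4 is a transcription factor with an HMG-box DNA-binding domain that is expressed in progenitors of many tissues and can cooperate with other oncogenes in myeloid leukaemia. On its probe set of highest mean, 201417_at, SOX4 was at 12.07, 12.03 and 12.05 in the CA arrays, against 11.42, 11.44 and 11.44 in the DMSO arrays (log2 intensity). All CA arrays lay above all DMSO arrays, and the gap was many times the SD within a group, 0.02 in CA and 0.01 in DMSO. The difference was 0.62 on the log2 scale, a 1.54-fold rise (SE 0.04, limma adjusted p = 5.91e-04). Probe set 201416_at had the largest difference, with 10.75, 10.65 and 10.64 in CA against 9.88, 9.79 and 9.79 in DMSO, a 1.81-fold rise (0.86, 95% confidence interval 0.73 to 0.99). That difference ranked 174 from the top among the 54613 probe sets.

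Probe set 213668_s_at of SOX4 read 8.82, 8.72 and 8.66 in CA and 8.03, 8.04 and 7.99 in DMSO, a rise of 0.72 (interval 0.58 to 0.85). Probe set 201418_s_at read 8.52, 8.69 and 8.60 in CA and 8.21, 8.25 and 8.14 in DMSO, a rise of 0.40 (0.26 to 0.55). The groups did not overlap in either, although the probe sets differ in the size of the change that they report for the same gene. The fifth, 213665_at, was below the level for expression in both groups, at 5.68, 5.66 and 5.72 in CA and 5.39, 5.42 and 5.42 in DMSO, and was called higher by 0.27. The sixth, 1567906_at, overlapped between the groups at 4.92 ± 0.14 in CA and 4.98 ± 0.22 in DMSO (SD, n = 3), and its difference of -0.06 had an interval of -0.35 to 0.22.

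With any 1 array left out, the calls of 201417_at, 201416_at and 213668_s_at were kept, with a highest limma adjusted p = 0.00775. Probe set 201418_s_at lost its call without CA replicate 2 or 3 or DMSO replicate 1 or 3 (adjusted p up to 0.0600), and 213665_at without any 1 of the 6 arrays (0.0619 to 0.0771). For RNA integrity, the difference between the 3' and 5' control probe sets of GAPDH was 0.48 ± 0.05 in CA and 0.38 ± 0.02 in DMSO (SD, n = 3), with no overlap between the groups. That of ACTB was 2.38 ± 0.07 in CA and 2.27 ± 0.13 in DMSO (SD, n = 3), and its groups overlapped. The part of RNA integrity in the SOX4 differences was not tested.

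NPR3 is the clearance receptor for natriuretic peptides, which removes the hormones from the circulation and lacks the guanylyl cyclase domain of its relatives. Its expressed probe set, 219054_at, read 7.77, 7.70 and 7.74 in CA, against 7.45, 7.44 and 7.56 in DMSO. The lowest CA array was above the highest DMSO array. The rise was 1.19-fold (log2 difference 0.25, interval 0.13 to 0.38, limma adjusted p = 0.0443), and the call was lost with any 1 of the 6 arrays left out (0.0646 to 0.138). Probe set 219789_at read 6.23, 6.15 and 6.34 in CA and 5.63, 5.62 and 5.63 in DMSO. It was thus at or above log2 6 in the CA arrays only, and its rise of 1.52-fold (0.61, interval 0.47 to 0.75, adjusted p = 0.00235) kept its call with any 1 array left out. The third probe set, 219790_s_at, overlapped between the groups, at 5.41 ± 0.04 in CA and 5.26 ± 0.25 in DMSO (SD, n = 3; difference 0.15, interval -0.13 to 0.43).

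**Figure D2:**
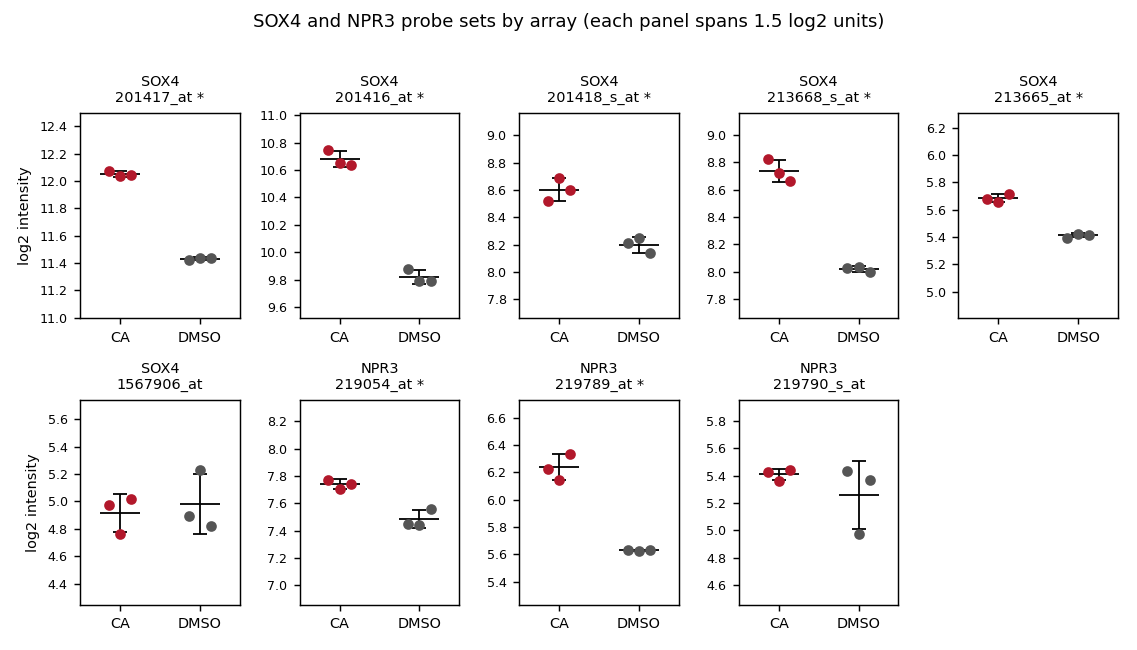
Log2 intensity of the 6 SOX4 and 3 NPR3 probe sets in each array. Points are arrays (CA red, DMSO grey), bars are the mean ± SD of 3 arrays, every panel spans the same range of log2 units, and an asterisk marks a probe set called by limma at an adjusted p under 0.05. In the 7 panels with an asterisk all CA points lie above all DMSO points.

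LAPTM4B encodes a transmembrane protein of late endosomes and lysosomes and is one of the genes of a published leukaemia stem cell score. All 4 of its probe sets were below DMSO in all 3 CA arrays, but none passed the test over all probe sets. The largest difference was on 1554679_a_at, which read 10.45, 10.42 and 10.52 in CA against 10.68, 10.80 and 10.98 in DMSO (-0.36, interval -0.55 to -0.17, limma adjusted p = 0.0564). Probe set 208767_s_at read 11.72, 11.62 and 11.71 in CA and 11.86, 11.89 and 12.03 in DMSO (-0.24, adjusted p = 0.0870). Probe sets 208029_s_at and 214039_s_at differed by -0.14 (adjusted p = 0.144) and -0.11 (0.219), and in each the SD within a group was at most 0.02. The intervals of all 4 lie below 0, and the largest fold that they allow is given by the lower bound of -0.55. Probe set 1554679_a_at was called without DMSO replicate 1 (adjusted p = 0.0491). With only probe sets of a mean log2 of at least 6 tested, all 4 were called (adjusted p of 0.0159 to 0.0390). The same 4 were called with an intensity trend and robust moderation (6.18e-04 to 0.00162), and the mean of the 4 probe sets was called in a fit over genes (-0.21, adjusted p = 0.0277).

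MSI2 is an RNA-binding protein of the Musashi family that regulates translation in haematopoietic stem cells and is raised in aggressive myeloid leukaemia. Its 10 probe sets gave 4 differences above and 6 below 0, and none was called. The 6 expressed probe sets lay between -0.07 and 0.00. The probe set of highest mean, 226134_s_at, read 9.20, 9.25 and 9.22 in CA and 9.28, 9.36 and 9.26 in DMSO, and its interval of -0.19 to 0.04 sets the bounds of a change in that transcript region. A different value came from 1552364_s_at, at 6.18, 6.19 and 6.13 in CA against 5.61, 5.76 and 6.06 in DMSO. Its difference of 0.36 (interval 0.10 to 0.62, limma adjusted p = 0.138) was accompanied by the widest spread of MSI2 among the DMSO arrays (SD 0.23). Without DMSO replicate 3 it was 0.48 and called (adjusted p = 0.0284), and it was also called with an intensity trend and robust moderation (0.0489).

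CD34, a sialomucin of stem and progenitor cells and of endothelium, read 6.05, 6.36 and 6.35 in CA and 6.21, 6.32 and 6.50 in DMSO. The groups overlapped, and the difference of -0.08 had an interval of -0.34 to 0.17. PROM1, a pentaspan membrane protein, was at 3.21 ± 0.06 in CA and 3.07 ± 0.02 in DMSO (SD, n = 3; difference 0.14, limma adjusted p = 0.207), far below the level for expression although its groups did not overlap.

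The remaining genes had no expressed probe set, and for them the array gives little beyond that. SPINK2, a Kazal-type inhibitor of serine proteases, was at 5.25 ± 0.10 in CA and 5.15 ± 0.15 in DMSO (SD, n = 3; difference 0.09, interval -0.12 to 0.31). CD200, an immunoglobulin-family ligand that restrains myeloid cells through its receptor, had differences of 0.11 and -0.06 on its 2 probe sets. MECOM, which encodes the zinc-finger factor EVI1, had differences of -0.07 to 0.14 on 5 probe sets, with DMSO means of 3.04 to 3.98.

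**Figure D3:**
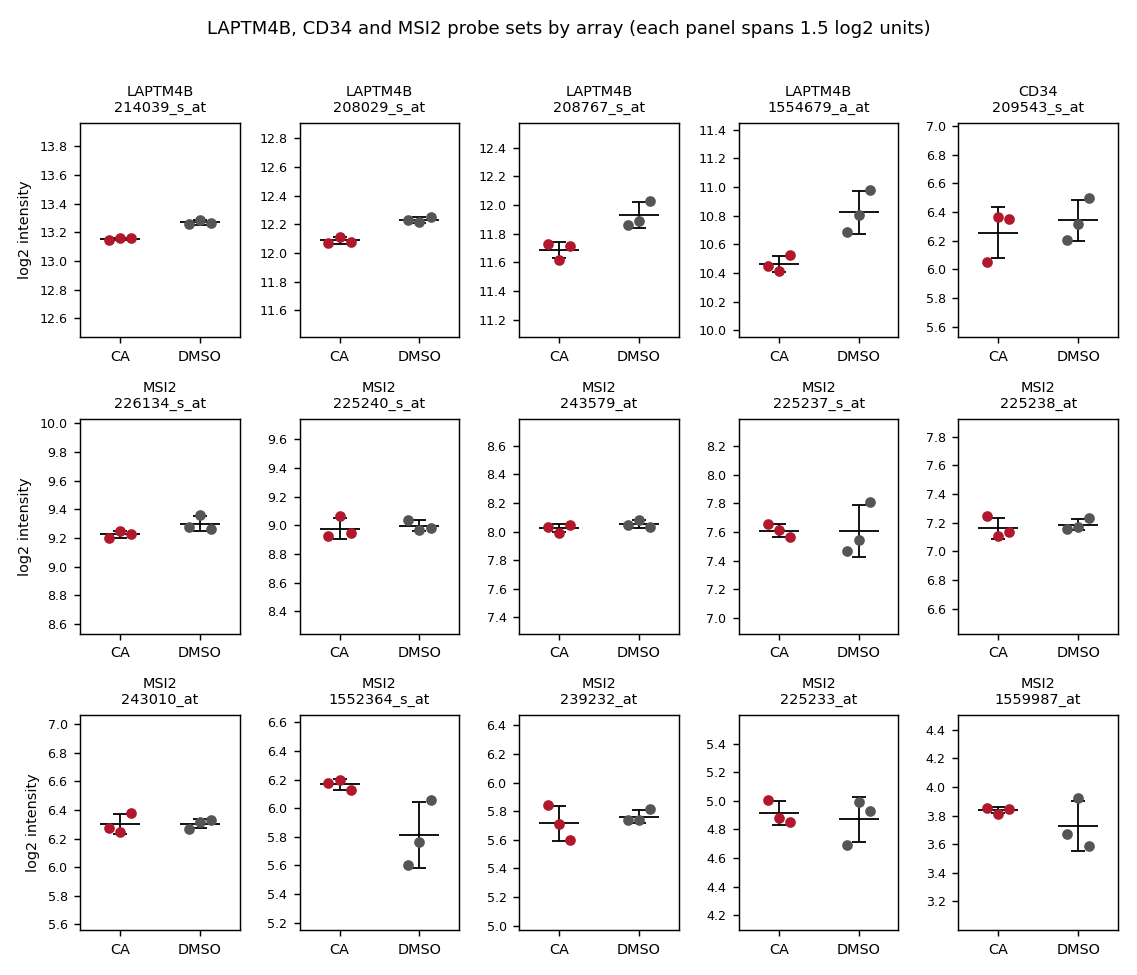
Log2 intensity of the 4 LAPTM4B, 1 CD34 and 10 MSI2 probe sets in each array. Points are arrays (CA red, DMSO grey), bars are the mean ± SD of 3 arrays, and every panel spans the same range of log2 units. In the 4 LAPTM4B panels all CA points lie below all DMSO points, while most MSI2 panels overlap and 1552364_s_at has widely spread DMSO points.

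Related genes were read from lists, with each gene represented by its probe set of highest mean and the calls of the same fit. Other probe sets of a gene did not always pass: of the genes called below, LMO2, IL1RAP and ITGAM were called on 1 of 2 probe sets, GATA2 and PHC2 on 1 of 3, CBX2 on 1 of 4, PCGF5 on 2 of 5, CD36 and PTPRC on 3 of 5 and CDK6 on 2 of 7. Conversely, some genes that count as uncalled had another probe set that was called, higher for SOCS2, MYB, CD44, TCF3, PHC3 and MPO and lower for PCGF2, CSF3R and COL1A2, all named after their values were seen. Over all 19775 genes so represented, 4.31% were called higher and 2.55% lower, 6.86% together. These shares are for calls at an adjusted p under 0.05. The share of all genes at an unadjusted p under 0.05 was not counted. Unadjusted counts of lists and neighbours given below thus have no baseline and cannot be set against these shares. Of 98 measured genes in the lists of stem cell genes, relatives and partners, 13 were higher and 6 lower. Their median change was 0.03, against -0.00 over all genes.

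Among the 15 measured further genes of the leukaemia stem cell score, 2 were called higher and 0 lower, with 5 higher and 2 lower at an unadjusted p under 0.05 and a median of 0.05. The de novo DNA methyltransferase DNMT3B read 8.82, 8.83 and 8.76 in CA against 8.41, 8.36 and 8.45 in DMSO, a 1.32-fold rise (0.40, limma adjusted p = 0.00642) that was kept with any 1 array left out. CDK6, a cell-cycle kinase and MLL-fusion target, rose by 0.26 (adjusted p = 0.0219), a call lost with any 1 array left out (0.0606 to 0.0874). Of these 15 genes 4 were expressed in the DMSO arrays.

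Of 20 factors of stem cell transcription and self-renewal, 3 were called higher and 1 lower (median 0.04). LMO2, a bridging protein of blood transcription complexes, rose by 0.34 (limma adjusted p = 0.00817), a call kept with any 1 array left out. GATA2 rose by 0.32 and MEIS1, the homeobox partner of HOXA9, by 0.25, and both calls were lost with any 1 array left out (adjusted p up to 0.122 and 0.142). LYL1, a basic helix-loop-helix factor, read 8.90, 8.84 and 8.99 in CA against 9.34, 9.28 and 9.23 in DMSO (-0.37, adjusted p = 0.0159). Its call was lost without CA replicate 1 or 2 or DMSO replicate 1 or 2, at an adjusted p of up to 0.0650.

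The list of stem and progenitor surface proteins gave the largest changes among these lists, and in both directions. It also holds ANGPT1, CRHBP and AVP, which encode secreted proteins and were not called. Of 25 measured, 4 were higher and 3 lower, with a median of -0.00. ITGA6, the integrin alpha-6 chain (CD49f) of long-term repopulating stem cells, read 8.40, 8.36 and 8.33 in CA against 7.09, 7.09 and 7.11 in DMSO, a 2.41-fold rise (1.27, limma adjusted p = 6.78e-05). IL3RA, the interleukin-3 receptor alpha chain (CD123) found on leukaemia stem cells, read 9.72, 9.77 and 9.80 in CA against 8.92, 8.86 and 8.85 in DMSO, a 1.85-fold rise (0.89). CD38, an ectoenzyme that is low on the most immature cells, rose 1.54-fold (0.62). PROCR, the endothelial protein C receptor that marks stem cells, read 7.18, 7.16 and 7.20 in CA against 7.77, 7.81 and 7.73 in DMSO and fell 1.51-fold (-0.59, adjusted p = 9.48e-04). These 4 calls were kept with any 1 array left out.

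The other called surface genes were chosen after their values were seen. The chemokine receptor CXCR4 rose by 0.48 (limma adjusted p = 0.00262), and its call was kept with any 1 array left out. IL1RAP, a co-receptor of interleukin-1 found on leukaemia stem cells, fell by 0.26 on the log2 scale, and KIT, which binds stem cell factor, by 0.29. Leaving out any 1 array ended the call of IL1RAP (limma adjusted p of 0.0833 to 0.141). KIT kept its call only without CA replicate 3, with an adjusted p of up to 0.139 otherwise. KIT was below log2 6 in every array, at 5.36 ± 0.09 in CA and 5.64 ± 0.03 in DMSO (SD, n = 3).

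**Figure D4:**
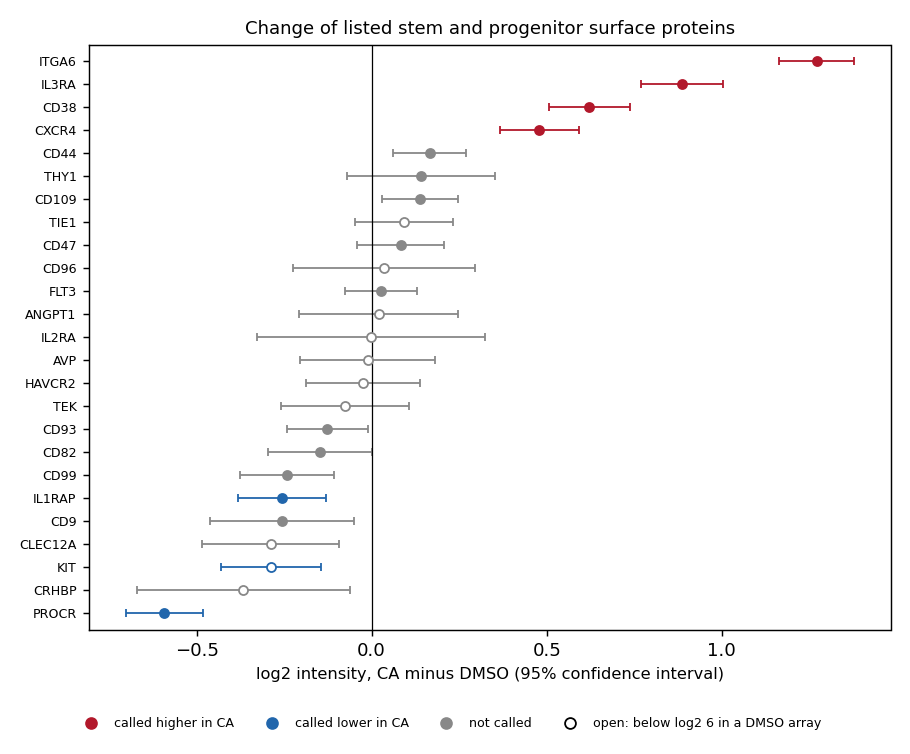
Difference in log2 intensity of CA minus DMSO, with its 95% confidence interval from limma (3 arrays a group). Shown are the 25 measured genes of the list of stem and progenitor surface proteins, each on its probe set of highest mean. ANGPT1, CRHBP and AVP in this list encode secreted proteins. Red marks the 4 genes called higher, blue the 3 called lower, grey those not called, and open symbols genes below log2 6 in at least 1 DMSO array. ITGA6 is at the top with 1.27 and PROCR at the bottom with -0.59.

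Polycomb complexes, in which BMI1 is a core subunit of complex 1, compact and silence chromatin. Of 16 measured subunits other than BMI1, all 16 were expressed, 3 were called higher and 1 lower (median 0.05). CBX6, a chromodomain subunit, was at 9.02 ± 0.01 in CA and 9.52 ± 0.08 in DMSO (SD, n = 3) and fell 1.41-fold (-0.50, limma adjusted p = 0.00426), a call kept with any 1 array left out. CBX2 (0.31), PHC2 (0.27) and PCGF5 (0.23), a RING finger paralog of BMI1, were called higher. PHC2 and PCGF5 lost their calls with any 1 array left out, at an adjusted p of up to 0.0953 and 0.142. CBX2 lost its call without CA replicate 2 or 3 or DMSO replicate 2 or 3 (up to 0.0604).

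Relatives and partners of the other genes gave small differences, listed here as log2 differences of CA minus DMSO. Of the 7 genes around SOX4, none was called by limma and 1 was higher at an unadjusted p under 0.05. That gene was TCF3, which also had 1 of its 14 probe sets called higher, other than the one of highest mean. SOX12, the SOX4 paralog that was expressed, was at 0.04, SOX11 at 0.19 and below the level, TCF3 at 0.16, TCF4 at 0.03, CTNNB1 at -0.09, SYNCRIP at 0.01 and TEAD2 at -0.01. The MSI2 paralog MSI1 was at -0.06, NUMB, whose mouse counterpart is a target of Musashi proteins, at 0.07 and its paralog NUMBL at 0.06. The CD200 receptor CD200R1 was at -0.11. The guanylyl cyclase receptor NPR1 was at -0.07, and the ligands NPPA, NPPB and NPPC were at -0.12, 0.03 and -0.03. Neither these 4 genes, nor the 3 around MSI2, nor CD200R1 was called or reached an unadjusted p under 0.05.

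Of 7 measured relatives of CD34, PROM1, LAPTM4B and SPINK2, 1 rose and 1 fell. PODXL, a sialomucin of the CD34 family, read 7.79, 7.83 and 7.93 in CA against 7.48, 7.51 and 7.51 in DMSO (0.35, limma adjusted p = 0.0149). Its call was lost without CA replicate 2 or without any 1 DMSO array (up to 0.0611). LAPTM5, a lysosomal protein of blood cells, fell by 0.29 on the log2 scale (adjusted p = 0.0239), a call lost with any 1 array left out (0.0509 to 0.0914). The LAPTM4B paralog LAPTM4A was at 0.19, PROM2 at -0.11, EMCN at 0.05, SPINK1 at 0.03 and SPINK4 at 0.01, all uncalled.

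The 2 nearest measured genes on each side of each member were read in the same way, with gene order from GRCh38.p14. Of 40 such neighbours, 1 was higher and 0 lower by limma, with 2 higher and 4 lower at an unadjusted p under 0.05 (median 0.01). The gene called was COMMD3, next to BMI1 and the first part of the read-through transcript that shares the BMI1 probe set (0.27, adjusted p = 0.0231). Its call was lost with any 1 array left out (0.0579 to 0.0876). Beside SOX4, whose rise was 0.62, E2F3 was at -0.08, CDKAL1 at 0.07, CASC15 at 0.08 and NBAT1 at 0.21, all uncalled. Beside NPR3, ZFR, SUB1, TARS1 and ADAMTS12 lay between -0.06 and 0.13. Beside LAPTM4B, MTDH was at -0.12 (limma unadjusted p = 0.0286, adjusted p = 0.203), TSPYL5 at -0.035, MATN2 at 0.01 and RPL30 at 0.00, all uncalled.

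Some markers of the monocytic and granulocytic lineages also differed. Of 13 measured monocyte and macrophage markers, 2 rose and 4 fell: S100A9 (1.84), S100A8 (1.19), CD36 (-1.49), MNDA (-1.09) and, chosen after their values were seen, ITGAM (-0.45) and CSF1R (-0.39), the last a call lost with any 1 array left out (limma adjusted p up to 0.0894). Of 12 granulocyte markers 3 fell and 0 rose, with 5 lower and 1 higher at an unadjusted p under 0.05, namely PRTN3 (-1.02), AZU1 (-0.90) and ELANE (-0.39). These 3 encode azurophil granule proteases and a related granule protein, which are made at an early, promyelocytic stage. Not all azurophil genes of the list fell. CTSG was at 0.15 (interval 0.05 to 0.25), with all CA arrays above all DMSO arrays, and MPO at 0.06, both uncalled on these probe sets. Of the 2 MPO probe sets, 1 was called higher. The later granulocyte markers CEACAM8, LTF, CAMP, FCGR3B, CXCR2 and MMP8, named after their values were seen, were not expressed in the DMSO arrays and not called. The mean level of the monocyte list was 6.55 to 6.57 in CA arrays and 6.57 to 6.64 in DMSO arrays, and that of the granulocyte list 7.03 to 7.10 in CA arrays and 7.28 to 7.36 in DMSO arrays. CD14 was below log2 6 in all arrays. In the list of lymphoid, erythroid, megakaryocytic, stromal, epithelial and endothelial markers 0 of 17 were called by limma, with 2 higher at an unadjusted p under 0.05. For COL1A2, 1 of 3 probe sets, other than the one of highest mean, was called lower. The mean level of the list was 5.19 to 5.30 in CA arrays and 5.18 to 5.22 in DMSO arrays. The part of these markers in the changes of SOX4 and NPR3 was not tested.

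The cells were myeloid by their markers. In DMSO, CEBPA was at 11.70, FLT3 at 11.69, LYZ at 13.38, FUT4 at 10.67, PTPRC at 10.58, MPO at 7.82 and CD4 at 7.23, while SPI1 (5.51) and ANPEP (4.29) were below the level for expression on their probe sets. Of these, PTPRC (CD45) was called lower in CA (-0.59), and CD33 was not analysed here.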

How the data were processed

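The deposited log2 intensities, 1 per probe set and array, were made by the authors with RMA in the affy package, as the submitters' processing notes record, per the labels. Their versions and settings were not stated in these sources. The table held 54675 probe sets, and 62 controls were left out. The platform annotation gave 1 gene symbol to 41091 of the rest, several to 1801 and none to 11721. Array medians were 5.59 to 5.62. Arrays have no sequencing depth, and their number limits the precision.

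The comparison of CA with DMSO used lmFit and eBayes (limma 3.58.1, R 4.3.3), 2-sided and without covariates, on all 54613 probe sets, with Benjamini-Hochberg adjustment over them and no filter on level. The fit was also run on simulated data, with independent noise for each probe set and known changes added to some. That run checks the code only, since it holds neither related probe sets nor the spread between wells. The members and lists were chosen with earlier results of these data known. The rule for naming took every member probe set, up to 4 called genes of each list with the largest change, all genes of lists of at most 8, called neighbours and the defining myeloid markers.

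Same-numbered arrays did not deviate together (correlations of -0.01, 0.03 and -0.03), so the numbers were not taken as pairs. Alternatives varied the arrays, level filter, centring, normalization, moderation, probe sets and threshold.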

Additional observations from a re-analysis of the deposited data

How the results depend on the processing

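The rises of SOX4 on 201417_at, 201416_at and 213668_s_at and of NPR3 on 219789_at kept their direction and call in all settings run on them, which left out 1 array, filtered, centred, re-normalized, weighted, blocked or changed the threshold. With 1 array left out, 4 to 5 member probe sets were higher and 0 to 1 lower, against 7 and 0, while 1239 to 1327 of all probe sets were called against 2736, 8 to 11 list genes against 19 and 0 neighbours against 1 (the lowest and highest neighbour counts were both 0). Smaller changes depend on the number of arrays and on how the spread is moderated.

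With an intensity trend and robust moderation, 4 member probe sets were lower, 6073 of all probe sets were called, 32 list genes and 5 neighbours. At a mean log2 of at least 5, 3 member probe sets were lower, with 4503 calls in all and 2 neighbours, and at 6 or more 4 were lower, with 5440 calls, 31 list genes and 4 neighbours. With only probe sets of 1 symbol, 1 member probe set was lower and 2 neighbours were called. Without _x_at and _s_at probe sets, 4 of the member probe sets left were higher, with 1438 calls in all and 9 list genes. At an adjusted p under 0.01, 4 were higher, with 968 calls, 8 list genes and 0 neighbours, and at 0.1, 2 were lower, with 4399 calls and 2 neighbours. With each gene's probe sets averaged, 1 member gene (LAPTM4B) was lower. With the replicate block, 5 member probe sets were higher, with 1109 calls in all, 8 list genes and 0 neighbours. Expressed probe sets numbered 20 at log2 5, 14 at log2 7 and 14 above the tissue-gene percentile, against 16.

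Only uncalled differences changed sign. With array weights MSI2 225237_s_at was at -0.0103. Centred on reference genes it was at -0.0045 and MECOM 215851_at at -0.0013. MSI2 243010_at was at 0.0048 centred on medians and 0.0028 after a second quantile normalization. With 1 array left out, MSI2 225233_at ranged from -0.0480 to 0.102, 225237_s_at from -0.0652 to 0.105, 225238_at from -0.0678 to 0.0032, 225240_s_at from -0.0613 to 0.0080, 239232_at from -0.109 to 0.0133 and 243010_at from -0.0442 to 0.0229. Likewise SOX4 1567906_at ranged from -0.145 to 0.0592, CD34 209543_s_at from -0.151 to 0.0179, CD200 209582_s_at from -0.145 to 0.0099, MECOM 215851_at from -0.0201 to 0.0340 and 221884_at from -0.138 to 0.0585. The cause was not tested.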

Other observations

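The next measured gene beyond NBAT1 on the far side of SOX4 is PRL, which encodes the pituitary hormone prolactin and stood in the list of tissue genes that blood cells are not expected to express. It was singled out after its value was seen. PRL read 5.64, 5.71 and 5.70 in CA arrays against 4.98, 5.03 and 5.04 in DMSO arrays, a difference of 0.66 (95% confidence interval 0.55 to 0.78, limma adjusted p = 6.61e-04) that was called with any 1 array left out. It was the only called gene of the 37 measured in that list, and all 6 values lay below log2 6.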
